A study of Mus musculus with 8 samples.

Results

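Hemoglobin transcripts in lower first molars were examined through 8 genes: the adult alpha-globins Hba-a1 and Hba-a2, the embryonic alpha-type globin Hba-x, the adult beta-globins Hbb-bs and Hbb-bt, the embryonic beta-type globins Hbb-y and Hbb-bh1, and Alas2. They were taken by symbol from the 43629 Ensembl genes with counts, and all 8 were found. The molars came from 4 control embryos of genotype Jagged1 fl/fl, numbered J3, J5, J6 and J7, and from 4 mutant embryos of genotype K14:cre; Jagged1 fl/fl, numbered K14J26, K14J28, K14J29 and K14J30. All were collected at E18.5, and both groups carry the floxed Jagged1 alleles. Left and right molars of each embryo were pooled, so that each library is 1 embryo. The Cre is driven by the keratin 14 promoter, which is active in epithelium, so the deletion is not directed at blood cells, and the dental mesenchyme in the same samples keeps the gene. The study asked how loss of Jagged1 in the dental epithelium changes the molar transcriptome. The globin genes allow a narrower question, namely which hemoglobins the blood in these teeth carried and how much blood RNA each embryo contributed.

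Mouse red cells arise in successive waves. Primitive erythroid cells of the yolk sac make hemoglobin from Hba-x, Hbb-y and Hbb-bh1, and definitive cells, produced in the fetal liver and later in the bone marrow, use the adult alpha- and beta-globin genes. This change is known as globin switching. Alas2 encodes the erythroid form of 5-aminolevulinate synthase, the enzyme that starts heme synthesis. Because a molar makes no hemoglobin of its own, these transcripts are commonly read as a sign of blood carried over at dissection.

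The beta-type genes lie together on chromosome 7 of GRCm38, all on the minus strand: Hbb-bt from 103812524 to 103813996, Hbb-bs from 103826534 to 103828096, Hbb-bh1 from 103841637 to 103843164 and Hbb-y from 103851749 to 103853216. The alpha-type genes lie on the plus strand of chromosome 11, Hba-x from 32276400 to 32278116, Hba-a1 from 32283511 to 32284465 and Hba-a2 from 32296489 to 32297298. Alas2 lies on the plus strand of chromosome X from 150547375 to 150570638. All 8 are annotated as protein coding.

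How far reads can tell these genes apart is visible in their coding sequences. The first 90 coding bases of the beta-type genes lie within the first exon of each and are given 5′ to 3′ on the coding strand from GENCODE M21. Capitals mark bases that differ from Hbb-bs.
Hbb-bs: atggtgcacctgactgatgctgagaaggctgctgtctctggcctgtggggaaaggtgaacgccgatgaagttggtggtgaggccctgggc
Hbb-bt: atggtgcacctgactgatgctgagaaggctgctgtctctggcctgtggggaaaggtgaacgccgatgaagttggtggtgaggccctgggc
Hbb-y: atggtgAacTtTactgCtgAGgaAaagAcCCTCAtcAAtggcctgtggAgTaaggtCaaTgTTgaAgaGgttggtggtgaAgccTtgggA
Hbb-bh1: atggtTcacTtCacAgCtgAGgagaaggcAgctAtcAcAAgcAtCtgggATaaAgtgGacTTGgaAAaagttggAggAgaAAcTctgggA

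These stretches run from chr7:103827786-103827875 for Hbb-bs, chr7:103813780-103813869 for Hbb-bt, chr7:103853063-103853152 for Hbb-y and chr7:103843021-103843110 for Hbb-bh1. Over the whole coding sequence, without the stop codon, the adult genes Hbb-bs and Hbb-bt were identical at 440 of 441 bases. Hbb-y matched Hbb-bs at 328 and Hbb-bh1 matched it at 326 of the 441 bases.

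The alpha-type genes show the same arrangement of a near-identical adult pair and a divergent embryonic gene. Their first 90 coding bases are shown for the adult and the embryonic gene, with capitals where Hba-x differs from Hba-a1.
Hba-a1: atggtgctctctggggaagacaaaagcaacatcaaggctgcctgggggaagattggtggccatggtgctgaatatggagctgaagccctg
Hba-x: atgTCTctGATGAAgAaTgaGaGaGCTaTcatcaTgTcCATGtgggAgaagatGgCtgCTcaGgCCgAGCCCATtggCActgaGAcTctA

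These bases lie at chr11:32283707-32283796 for Hba-a1 and chr11:32276664-32276753 for Hba-x, and Hba-a2 is identical to Hba-a1 over this stretch. Across the coding sequence Hba-a1 and Hba-a2 differed at 1 of 426 bases, while Hba-a1 and Hba-x differed at 163. Reads were 120 bases long after trimming at most. Of all windows of 120 bases in its annotated protein-coding transcripts, 51.6% in Hba-a1 and 68.7% in Hba-a2 also occur in the other gene. The shares were 52.4% for Hbb-bs and 53.3% for Hbb-bt. For Hba-x, Hbb-y, Hbb-bh1 and Alas2 no window recurred exactly in any other of the 16 globin and Alas genes and pseudogenes compared. The split of counts within each adult pair is therefore uncertain, since the treatment of reads with several matches is not given in the sources used here, whereas the embryonic genes and Alas2 do not share such reads.

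Totals ran from 17327224 to 28613574 counts in control and from 24692128 to 29792467 in mutant libraries, and 3 counts correspond to 0.101 to 0.173 counts per 1000000 (CPM) of the deposited totals. TMM scaling factors lay between 0.969 and 1.04 in 7 libraries and at 0.843 in K14J26. The deleted gene, Jag1, had 95.2 to 104 CPM in control against 34.0 to 57.1 CPM in the mutants (log2 fold change -1.19, SE 0.14, adjusted p = 0.00517, edgeR quasi-likelihood test). Markers of the labelled tissue passed the count filter: all 7 dental epithelium genes and all 6 dental mesenchyme genes of the lists were tested. Of these, 4 epithelial genes (Krt14, Sp6, Amelx and Ambn) were higher in the mutants, and 2 mesenchymal genes (Dspp and Col1a1) were higher and 3 (Msx1, Pax9 and Barx1) lower, where 9.52% of all genes tested were called higher and 6.61% lower. The epithelial calls were lost without J3, J5, J7 or K14J29 and fell to 2 without J6, and the mesenchymal calls fell from 5 to none without K14J29, to 1 without J3 or J7, to 2 without J5 and to 3 without J6 or K14J30.

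Adult globin transcripts were detected in all 8 molar samples, with CPM scaled to the TMM-normalized library size. Hbb-bs, one of the adult beta-globins, was the most abundant, with 445, 585, 388 and 394 CPM in the controls J3, J5, J6 and J7. Among mutants it reached 320 CPM in K14J26, 762 in K14J28, 346 in K14J29 and 544 in K14J30. The lowest and the highest of these values both belonged to mutants, and the control values lay between them.

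**Figure D1:**
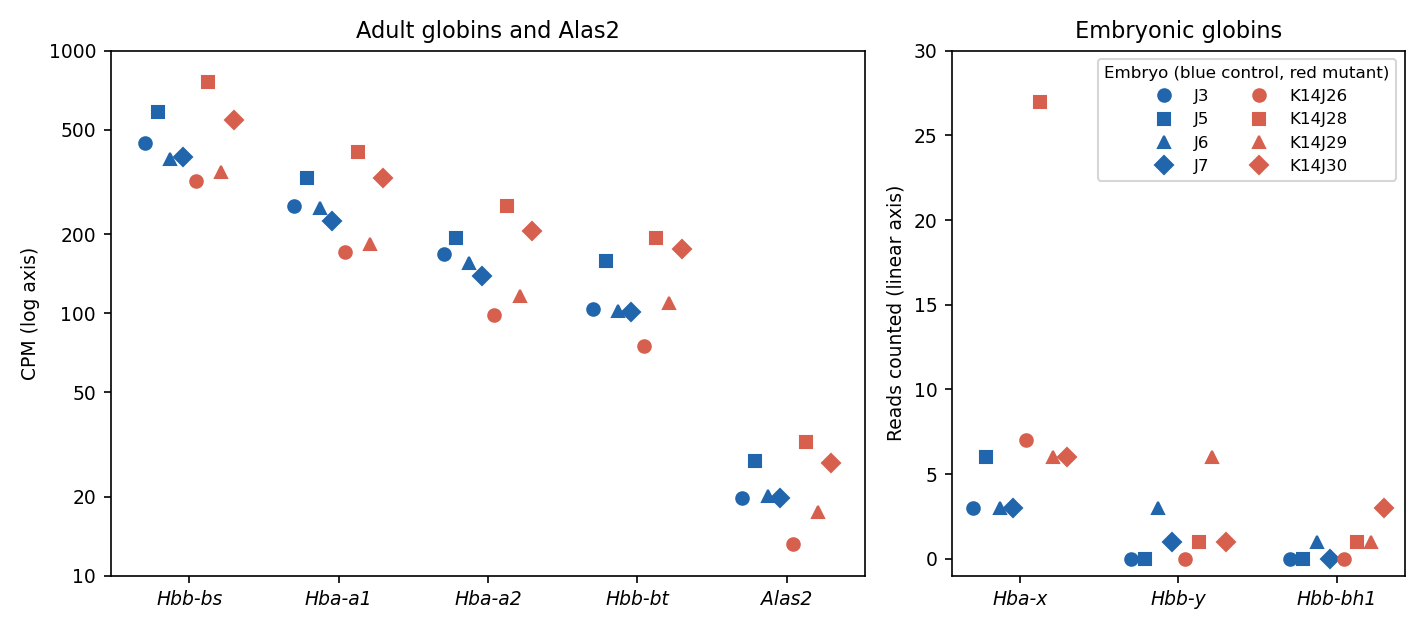
CPM of the adult globins and Alas2 on a log axis (left) and reads counted on the embryonic globins on a linear axis (right), 1 point per embryo, controls in blue and K14Cre;Jagged1 fl/fl mutants in red. K14J28 is the highest and K14J26 the lowest point for each of the 5 abundant genes, while no embryonic gene exceeds 27 reads.

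The second adult beta-globin, Hbb-bt, had 103, 158, 102 and 101 CPM in the controls and 74.9, 194, 109 and 176 CPM in the mutants, in the same order of embryos. Hba-a1, an adult alpha-globin, had 256, 327, 252 and 225 CPM in the controls and 170, 411, 183 and 327 CPM in the mutants. For its near-copy Hba-a2 the values were 168, 193, 155 and 139 CPM against 98.7, 256, 117 and 205 CPM. Each of these genes was highest in K14J28 and lowest in K14J26, so that the mutant values enclosed the control values.

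Alas2, which supplies the heme precursor in red cells, had 19.8, 27.4, 20.03 and 19.7 CPM in the controls. The mutant values were 13.2, 32.4, 17.4 and 26.9 CPM. It followed the globins in the order of embryos at both ends, again with K14J28 highest and K14J26 lowest.

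The embryonic globins were close to absent. Hba-x, the zeta-globin gene, was counted 3, 6, 3 and 3 times in the controls and 7, 27, 6 and 6 times in the mutants. Hbb-y, the epsilon-globin gene, was counted 0, 0, 3 and 1 times in the controls and 0, 1, 6 and 1 times in the mutants. For Hbb-bh1 there was 1 read in J6 and none in the other controls, and 0, 1, 1 and 3 reads in the mutants. Only K14J28, with 27 reads of Hba-x, stood above 10 reads for any of these genes, and no embryonic globin met the minimum that testing required, which was 10 counts in 2 or more embryos from the same group.

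Compared per kilobase of exon, the levels kept 1 order through most of the members. Hbb-bs averaged 616 ± 194 CPM per kb (SD, n = 8), followed by Hba-a1 with 331 ± 100.2 CPM per kb. Hba-a2 had 249.5 ± 76.3 and Hbb-bt 181 ± 60.7 CPM per kb. The order of these 4 genes held within each of the 8 embryos although their ranges across embryos overlapped, and it depends on how reads shared within each pair were counted. Alas2 came next with 9.20 ± 2.60 CPM per kb, below the adult globins in all 8 embryos. The embryonic genes had 0.313 ± 0.271 (Hba-x), 0.0927 ± 0.125 (Hbb-y) and 0.0482 ± 0.0663 (Hbb-bh1) CPM per kb. Hba-x was above Hbb-y in 6 of 8 embryos, Hba-x was above Hbb-bh1 in 8, and Hbb-y was above Hbb-bh1 in 3, so that the order of Hbb-y and Hbb-bh1 is not separated beyond their spread.

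The state of the switch can be read as the share of globin reads that fell on embryonic genes. Over all embryos, 79 of 207580 globin reads were embryonic, or 0.0381% (95% exact Clopper-Pearson interval 0.0301% to 0.0474%). In the controls the share was 0.0171% in J3, 0.0196% in J5, 0.0405% in J6 and 0.0157% in J7. In the mutants it was 0.0507% in K14J26, 0.0594% in K14J28, 0.0597% in K14J29 and 0.0310% in K14J30. J6 lay above K14J30, so the groups overlapped, and the largest upper bound of any embryo was 0.104%, in K14J26. Intervals and detection limits given here cover counting error only.

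Among beta-type reads, 18 of 120633 were embryonic, a share of 0.0149% (interval 0.00884% to 0.0236%). None were seen in J3, J5 and K14J26, where a count of 0, taken as up to 3 reads of the total, allows shares of up to 0.0303%, 0.0166% and 0.0365%. The highest share was 0.0533% in K14J29, from 7 reads. The log2 ratio of embryonic to adult beta-type reads, with 1 added to both sums, was 0.59 higher in the mutants (exact two-sided permutation test, p = 0.514), and its direction turned with a pseudocount of 10. The difference was 1.22 without J6, 0.94 without K14J28, 0.48 without K14J30, 0.43 without J3, 0.14 without J5 and 0.087 without K14J29.

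Among alpha-type reads, Hba-x contributed 61 of 86947, or 0.0702% (interval 0.0537% to 0.0901%). Its share was 0.0391%, 0.0476%, 0.0382% and 0.0279% in J3, J5, J6 and J7. In K14J26, K14J28, K14J29 and K14J30 it was 0.125%, 0.135%, 0.0693% and 0.0437%. Of the mutants, K14J30 lay within the range of the controls. The log2 ratio of Hba-x to adult alpha-globin reads was -11.01 ± 0.26 in the controls and -10.04 ± 0.71 in the mutants (SD, n = 4 each), a difference of 0.98 with p = 0.0857 in the exact permutation test and 0.343 after Benjamini-Hochberg adjustment over the 6 ratios examined. With a pseudocount of 10 the difference was 0.37 (exact permutation test, p = 0.2). The smallest p that 4 against 4 embryos allow is 0.0286.

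Summed over the 7 globin genes, hemoglobin transcripts took between 0.0560% of all counts, in K14J26, and 0.169%, in K14J28. Put otherwise, 1 read in 1787 and 1 read in 592 was a globin read in these libraries. The controls lay closer together, at 0.101%, 0.131%, 0.0927% and 0.0888% in J3, J5, J6 and J7, and the other mutants had 0.0731% (K14J29) and 0.127% (K14J30). Means were 0.103 ± 0.0190% in the controls and 0.106 ± 0.0517% in the mutants (SD, n = 4 each). No test was made on this sum. K14J26 also held the most Amelx, the main enamel matrix gene, with 60619 CPM where the other embryos had 364 to 14522 CPM, and its part in the low globin share was not tested. In TMM-scaled CPM the 5 abundant members still spanned 2.38-fold to 2.59-fold over the embryos. In a bulk sample, fewer red cells and less RNA per red cell cannot be told apart.

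**Figure D2:**
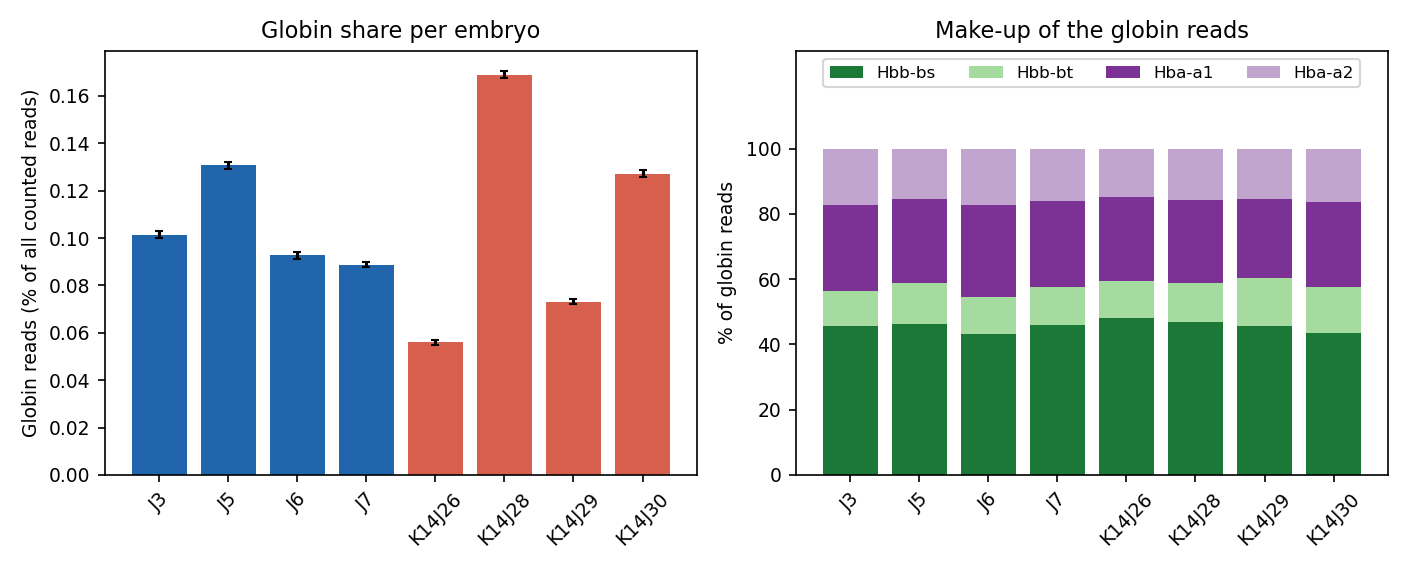
Left, globin reads as a percentage of all counted reads in each embryo (blue control, red mutant; bars show 95% exact binomial intervals); right, the make-up of these globin reads by adult gene. The total differs 3.02-fold between K14J26 and K14J28, while the proportions of the 4 adult genes are similar in each library.

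The make-up of the globin reads by adult gene varied less than their amount, which spanned 3.02-fold. Alpha-type genes provided 43.7%, 41.2%, 45.4% and 42.4% of globin reads in J3, J5, J6 and J7, and 40.5%, 41.1%, 39.7% and 42.5% in K14J26, K14J28, K14J29 and K14J30. The highest 2 values were controls and the lowest 3 were mutants, with K14J30 among the controls. The log2 ratio of alpha-type to beta-type reads was -0.40 ± 0.11 in controls and -0.53 ± 0.07 in mutants (SD, n = 4 each), a difference of -0.13 that did not pass the exact permutation test (p = 0.114, adjusted p = 0.343) and was -0.085 without J6.

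Within the adult pairs, Hba-a2 held 36.7% to 39.7% of adult alpha reads across the 8 embryos, and its ratio to Hba-a1 differed by -0.0066 on the log2 scale between mutants and controls (exact permutation test, p = 0.914), with the sign turned without J3 (0.022) or K14J26 (0.023) and in the ratio of group totals (0.015). Hbb-bt held 18.9% (J3), 21.3% (J5), 20.8% (J6) and 20.4% (J7) of adult beta reads in the controls. In the mutants it held 19.0% (K14J26), 20.3% (K14J28), 24.0% (K14J29) and 24.5% (K14J30). The binomial intervals of K14J29 (23.3% to 24.7%) and K14J30 (23.8% to 25.1%) lay above those of the other 6 embryos, whose highest bound was 21.9%. Between groups the log2 ratio of Hbb-bt to Hbb-bs differed by 0.13 (exact permutation test, p = 0.371), and by 0.215 without K14J26, 0.087 without J3, 0.072 without K14J29 and 0.060 without K14J30.

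Alas2 kept a nearly fixed proportion to the globins. There were 20.3, 21.7, 22.3 and 23.0 Alas2 reads per 1000 adult globin reads in J3, J5, J6 and J7, and 19.9, 19.98, 23.1 and 21.5 in K14J26, K14J28, K14J29 and K14J30. The ratio spanned 1.16-fold over embryos whose globin share spanned 3.02-fold. The log2 ratio differed by -0.05 between the groups (exact permutation test, p = 0.457, adjusted p = 0.617 over the 6 ratios). With 1 embryo left out it ran from -0.093 to -0.022, moving by over 1.5 times without J3, J7, K14J26, K14J28 or K14J29.

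None of the 5 members tested passed the threshold of an adjusted p under 0.05 between mutant and control molars, nor an unadjusted p under 0.05, in edgeR's quasi-likelihood test, and none did in DESeq2. Over all 17129 genes tested, 16.1% passed, 1631 higher and 1133 lower in the mutants. That balance depended on scaling. By library size alone it became 855 against 1060, a scaling that moved the median log2 fold change of all genes to -0.09, and with upper-quartile factors 1363 against 1448. A second rule, with p not above 0.05 before adjustment and a log2 ratio of 0.5 or more in size, was passed by 14.2% of all genes, and again by no member. For Hbb-bs the means were 453 ± 91.6 CPM in controls and 493 ± 205 CPM in mutants (SD, n = 4 each; log2 fold change 0.12, SE 0.27, adjusted p = 0.776). Hbb-bt showed the largest difference of the 5, with means of 116 ± 28.2 and 138 ± 55.8 CPM (log2 fold change 0.25, SE 0.28, adjusted p = 0.552).

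The means of Hba-a1 were 265 ± 43.5 and 273 ± 116 CPM (log2 fold change 0.04, SE 0.27, adjusted p = 0.929). Those of Hba-a2 were 164 ± 22.9 and 169 ± 74.2 CPM (log2 fold change 0.05, SE 0.28, adjusted p = 0.920), and those of Alas2 were 21.7 ± 3.79 and 22.5 ± 8.75 CPM (log2 fold change 0.05, SE 0.26, adjusted p = 0.905). These small differences took the opposite sign by library size alone for Hba-a1, Hba-a2 and Alas2, without K14J28 for the same genes and Hbb-bs, without K14J30 for Hba-a1, Hba-a2 and Alas2, and without J7 for Hba-a1 and Hba-a2. The 95% intervals of the log2 fold changes reached from -0.57 to 0.65 for Hba-a1, from -0.57 to 0.67 for Hba-a2, from -0.48 to 0.72 for Hbb-bs, from -0.38 to 0.89 for Hbb-bt and from -0.53 to 0.63 for Alas2. Changes of up to 1.57-fold for Hba-a1 and 1.86-fold for Hbb-bt thus lie within them. The median log2 fold change of the 5 members was 0.05, against 0.01 over all genes tested.

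**Figure D3:**
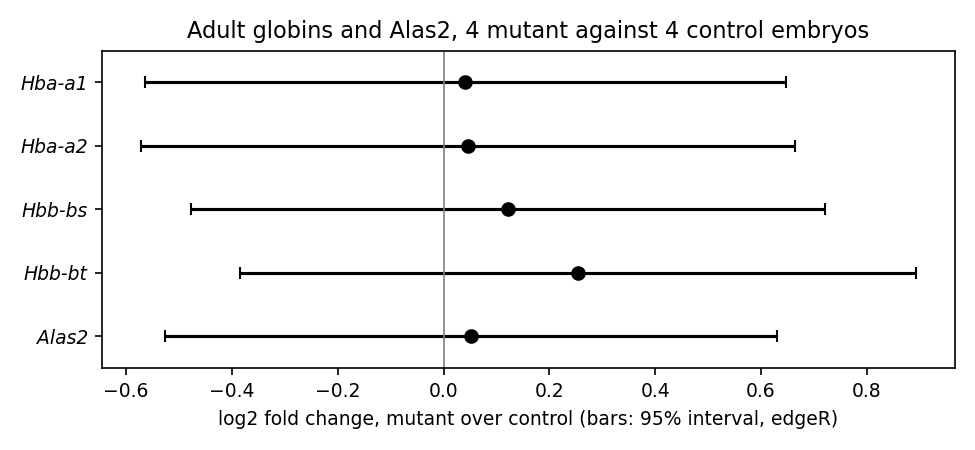
Log2 fold changes of the 5 tested members, mutant over control, with 95% intervals from edgeR's quasi-likelihood fit over 4 and 4 embryos. All 5 intervals contain 0, and they span about the same width.

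Across the 8 embryos the abundant members rose and fell together. With values as log2(CPM + 0.1), Hbb-bs correlated with Hba-a1 at r = 0.97 and rho = 0.98 (exact permutation p = 7.4e-05 and 0.000397), and r was 0.96 without the 2 embryos farthest from the median of Hbb-bs, K14J28 and J5. With Alas2 the values were r = 0.96 and rho = 0.93 (exact permutation p = 0.000149 and 0.00223), and 0.93 without those embryos. Hbb-bt gave r = 0.93 and rho = 0.81 (exact permutation p = 0.00114 and 0.0218), and 0.88 without them. For Hba-a2 they were r = 0.96 and rho = 0.95 (exact permutation p = 0.000174 and 0.00114), and 0.97 without them. After Benjamini-Hochberg adjustment over the 12 relations computed, these 8 p-values were at most 0.0436. The pairs share a library and, within each adult pair, reads, and 4 embryos per group are too few for a correlation within groups.

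The promoters of abundant and of nearly silent members are shown side by side as the 120 bases before the start of each RefSeq transcript on GRCm38.p6, 5′ to 3′ on the strand of the gene. The table used held 7 of the 8 members, and Hbb-bh1 was not among them. For most of these genes the GENCODE model begins farther upstream, so the windows overlap it. Capitals mark, on either strand, the letters CACCC of the box bound by KLF factors, the letters CCAAT of the box of that name, the letters TATAA of the TATA box and the letters GATAA of the motif bound by GATA factors. None of these overlap within a window.
Hba-a1: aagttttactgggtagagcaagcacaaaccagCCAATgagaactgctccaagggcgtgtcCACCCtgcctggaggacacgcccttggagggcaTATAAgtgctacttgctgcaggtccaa
Hba-x: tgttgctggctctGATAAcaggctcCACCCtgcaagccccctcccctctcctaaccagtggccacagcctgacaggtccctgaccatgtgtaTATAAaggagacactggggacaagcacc
Hbb-bs: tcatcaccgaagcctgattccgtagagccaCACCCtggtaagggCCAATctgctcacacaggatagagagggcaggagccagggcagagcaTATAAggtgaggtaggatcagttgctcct
Hbb-bt: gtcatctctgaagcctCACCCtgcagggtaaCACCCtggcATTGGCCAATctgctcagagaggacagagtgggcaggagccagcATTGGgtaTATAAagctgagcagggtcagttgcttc
Hbb-y: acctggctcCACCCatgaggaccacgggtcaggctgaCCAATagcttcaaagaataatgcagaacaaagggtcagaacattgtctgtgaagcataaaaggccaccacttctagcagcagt
Alas2: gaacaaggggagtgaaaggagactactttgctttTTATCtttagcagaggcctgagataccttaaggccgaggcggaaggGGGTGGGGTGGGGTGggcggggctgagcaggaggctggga

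They lie at chr11:32283552-32283671 (Hba-a1), chr11:32276480-32276599 (Hba-x), chr7:103827929-103828048 (Hbb-bs), chr7:103813924-103814043 (Hbb-bt), chr7:103853208-103853327 (Hbb-y) and chrX:150547297-150547416 (Alas2). The promoter of Hba-a2 is identical to that of Hba-a1 over 117 bases once shifted by 3 bases, and that of Hbb-bt matches Hbb-bs at 88 of 119 aligned bases. All 7 windows hold CACCC on either strand, as do 31.7% of the 32851 promoter windows of this length. CCAAT was in 5 of the 7, the windows of Hba-x and Alas2 lacking it, against 21.3% of all windows. TATAA was in the windows of the adult globins and Hba-x (11.8% of all windows) and GATAA in those of Hba-x and Alas2 (10.5%). These matches are a description of letters, and both nearly silent and abundant genes hold them.

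Other red cell genes did not all follow the globins. Slc4a1, which encodes the anion exchanger of the red cell membrane and was picked after its values were seen, had 2.27, 35.3, 5.19 and 12.4 CPM in J3, J5, J6 and J7, and 5.77, 13.1, 15.4 and 21.7 CPM in K14J26, K14J28, K14J29 and K14J30. It thus spanned 15.6-fold among the controls alone, where Hbb-bs spanned 1.51-fold. J5 was the highest and J3 the lowest of all 8 embryos, with 857 and 41 reads.

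Set against the globin of the same embryo, there were 5.11 Slc4a1 reads per 1000 Hbb-bs reads in J3 and 60.4 in J5, an 11.8-fold difference, whereas Alas2 reads per 1000 Hbb-bs reads spanned 1.25-fold over all embryos. Over the 8 embryos Slc4a1 correlated with Hbb-bs at r = 0.43 and rho = 0.43 (exact permutation p = 0.290 and 0.299), and r was 0.20 without K14J28 and J5. It was not called between mutants and controls, with a log2 fold change of 0.01 (SE 0.70, adjusted p = 0.991, edgeR).

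**Figure D4:**
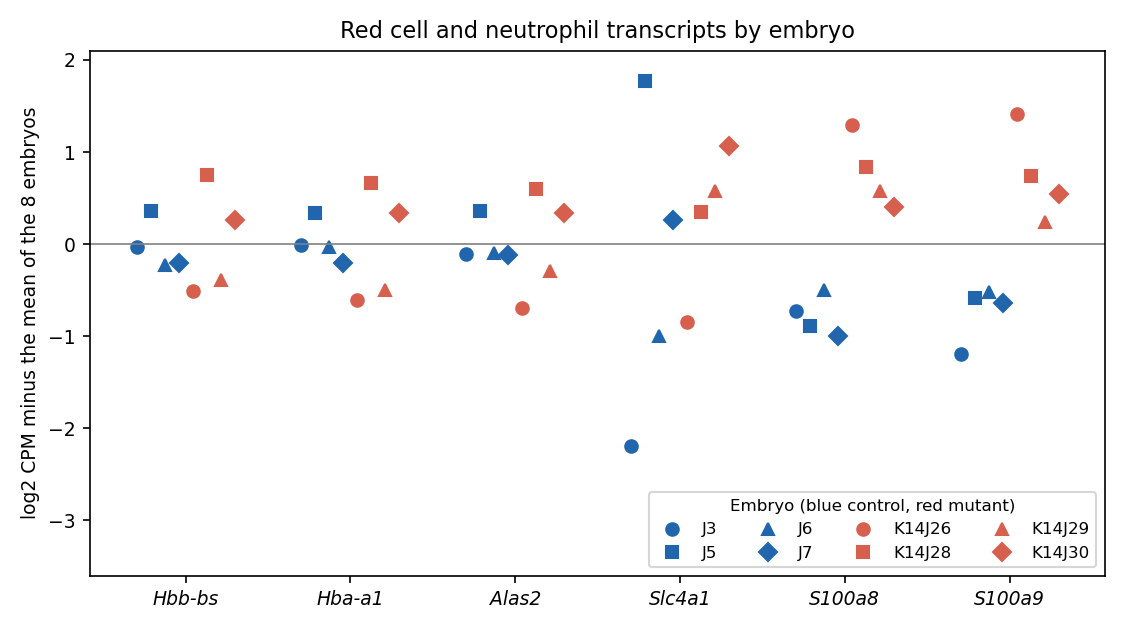
Log2 CPM of red cell genes (Hbb-bs, Hba-a1, Alas2, Slc4a1) and neutrophil genes (S100a8, S100a9) in each embryo, minus the mean over the 8 embryos; controls in blue, K14Cre;Jagged1 fl/fl mutants in red. Hbb-bs, Hba-a1 and Alas2 are highest in K14J28 and lowest in K14J26, and Slc4a1 is highest in J5 and lowest in J3. S100a8 and S100a9 are higher in all mutants than in all controls, as are 12.6% of all genes tested. Other genes of the neutrophil list, which are not shown, overlap between the groups.

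The remaining red cell genes were followed through lists. Of 8 heme synthesis genes, with Ppox and Fech the most abundant, 3 were higher in the mutants and 5 passed in neither direction, with a median log2 fold change of 0.14. The 3 were Alas1, the housekeeping counterpart of Alas2 (log2 fold change 0.45, SE 0.11, adjusted p = 0.0255, edgeR), Uros and Cpox. None of these calls was made without any 1 of J3, J5, J6, J7 or K14J29, and 1 gene was called higher by library size alone. Without K14J30 the list had 1 gene called higher and 1 lower, and in DESeq2 3 higher and 1 lower. Of 7 genes for iron uptake, led by Tfrc, Slc11a2 and Slc25a37, 2 were higher, Slc25a38 and Steap3, both of which lost their call without J3, J7 or K14J29, and 1 gene was called without J5. Tfrc, the transferrin receptor, had 80.2 CPM in K14J26 and 174 CPM in K14J28, the same extremes as the globins. These shares can be set against the 9.52% of all genes called higher and the 6.61% called lower, and many genes of these lists are also used by cells other than red cells.

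Of 17 red cell membrane genes, led by Epb41, Aqp1 and Dmtn, 1 (Dmtn) was higher and 1 (Epb41) lower, with a median log2 fold change of -0.01. With 1 embryo left out the median ran from -0.21, without J6, to 0.46, without J5, the embryo in which Slc4a1 was highest. Both calls were lost without J3, J5, J6, J7 or K14J29. In edgeR none of the 7 red cell cytosol genes tested, led by Prdx2, Cat and Car2, and none of the 7 red cell maturation genes tested, led by Bnip3l, Xpo7 and Ube2o, passed. Each list held 1 gene with an unadjusted p under 0.05, and DESeq2 called none of the first and 1 of the second. Their median log2 fold changes were -0.10 and 0.03. With 1 embryo left out the cytosol median ran from -0.15, without J6, to -0.05, without J3. The maturation median ran from -0.06, without K14J30, to 0.16, without K14J26. Without K14J28 edgeR called 1 cytosol gene higher and 1 maturation gene lower. With upper-quartile factors it also called 1 maturation gene lower. Ahsp, the alpha-globin chaperone, was not matched by symbol.

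Of 14 genes that regulate globin expression, led by Ldb1, Bcl11a and Klf3, only Myb passed in edgeR, where DESeq2 called 1 higher and 1 lower, with 6.81 ± 1.98 CPM in controls and 3.30 ± 0.530 CPM in mutants (SD, n = 4 each; log2 fold change -1.04, SE 0.22, adjusted p = 0.0200, edgeR). This call was lost without J3, J7 or K14J29. Gata1 and Klf1, the transcription factors of erythroid precursors, were counted at most 30 and 32 times in any embryo. Bcl11a, which represses embryonic globin genes in definitive red cells, had 127 to 147 CPM in the controls and 154 to 238 CPM in the mutants, with an adjusted p of 0.0528 in the edgeR test. In a whole molar these levels cannot be assigned to red cells.

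Among the other globin-family genes, 4 of 8 were tested and none passed in edgeR or DESeq2, with 1 (Mb) under an unadjusted p of 0.05. Cygb, encoding cytoglobin, had 20.8 ± 0.962 CPM in controls and 22.0 ± 6.63 CPM in mutants (SD, n = 4 each). Mb, encoding the myoglobin of muscle, was highest in J6, with 2.91 CPM where no other embryo exceeded 0.498 CPM, and skeletal muscle transcripts were high in J6 and J7, where the list summed to at most 399 CPM in a control and 18.7 CPM in a mutant. Of 7 skeletal muscle genes, led by Acta1, Myh8 and Mylpf, 1 (Ckm) was lower in the mutants in edgeR. No gene of this list was called without J6, J7, K14J29 or K14J30. In DESeq2 6 were lower, in edgeR without the count filter also 6, and in edgeR without J3 3. Hbq1b, a theta-type globin gene of the alpha cluster, was counted 6 to 24 times per embryo, and Hbb-bh0 and Hbb-bh2 not at all.

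Of 10 neutrophil genes tested, led by S100a9, Mpo and S100a8, 6 were higher in the mutants and none lower. Over all genes tested, 9.52% were called higher. The list was chosen with earlier results of these data known, so this contrast is not independent support. Its median log2 fold change was 1.54. S100a8, a subunit of calprotectin, had 2.49, 2.23, 2.91 and 2.06 CPM in the controls and 10.10, 7.35, 6.13 and 5.43 CPM in the mutants, so that the groups did not overlap. That was the case for 24.2% of all genes tested, and for 12.6% with the mutants higher. Its log2 fold change was 1.59 (SE 0.22, adjusted p = 0.00720, edgeR), and over the 8 embryos it correlated with Hbb-bs at r = -0.05 and rho = -0.26 (exact permutation p = 0.905 and 0.536). The other 5 were S100a9, Ngp, Ltf, Lcn2 and Cd177, and between 3 and 6 of the genes were called with 1 embryo left out, the fewest without J3 or K14J29. K14J26 had the highest value of all 6 genes and also of the epithelial genes Krt14, Amelx and Ambn, whose part in this was not tested, and in a whole molar these transcripts cannot be assigned to neutrophils. The summed level of the list was 11.2 to 17.7 CPM in controls and 26.8 to 57.4 CPM in mutants. Mpo, Camp, Prtn3 and Retnlg were tested but not called, and their values overlapped between the groups. Their log2 fold changes were 0.63, 1.26, 0.05 and 0.93 (adjusted p = 0.251, 0.0807, 0.916 and 0.290, edgeR).

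None of the 7 platelet and megakaryocyte genes tested (led by Itgb3, Gp1bb and Pf4; median log2 fold change 0.01), the 4 lymphocyte genes tested (led by Ighm, Cd79b and Cd79a; 0.38) or the 8 macrophage genes (led by Csf1r, Cd68 and Mrc1; -0.29) passed in edgeR or DESeq2, and 1 lymphocyte gene had an unadjusted p under 0.05. With 1 embryo left out the lymphocyte median ran from 0.13, without J6, to 0.80, without J7, and the platelet median from -0.31, without K14J28, to 0.62, without J5. The macrophage median ran from -0.37, without J3, to -0.18, without K14J26. Cd68, a lysosomal protein of macrophages, had 42.3 CPM in K14J28 and 11.6 to 20.9 CPM in the other embryos, and its r with the mean of the adult globins was 0.85 over the 8 embryos. Apart from Csf1r, whose r was 0.74, the other macrophage genes gave r from -0.24 (Mrc1) to 0.19 (Fcgr1), and none of them was highest in K14J28. Csf1r, which encodes a receptor and was listed with the macrophage genes, was highest in K14J28 like the globins. Its correlation with Hbb-bs of r = 0.76 (rho = 0.55, exact permutation p = 0.0232 and 0.171, or 0.0398 and 0.228 adjusted over the 12 relations) fell to 0.23 without K14J28 and J5. Itgb3, listed with the platelet genes, was also highest in K14J28, with 48.3 CPM against 13.2 (J6) to 29.2 CPM (J5) elsewhere. Which cells these transcripts came from was not tested. Of 9 endothelial genes, led by Cdh5, Pecam1 and Kdr, 1 (Tie1) was lower in edgeR, and the median log2 fold change was -0.17. The call was lost without any 1 of the 4 controls, K14J29 or K14J30. DESeq2 called 3 lower, and edgeR called 3 without K14J28 and 2 without K14J26. By library size alone and with upper-quartile factors 2 were lower, with medians of -0.29 and -0.22. Without K14J30 the median was -0.10. Pecam1, a marker of vessel walls, correlated with Hbb-bs at r = -0.48 (rho = -0.29; exact permutation p = 0.234 and 0.501), and r was -0.55 without K14J28 and J5. Hepatocyte genes, which would accompany liver tissue, were led by Ttr, Apoa1 and Serpina1a. Their list summed to at most 0.737 CPM in the mutants and 18.3 CPM in the controls, of which Ttr in J7 made up 17.6 CPM where no other control exceeded 0.618 CPM of Ttr. In all, 2 of 6 genes were tested and neither passed in edgeR or DESeq2, with 1 under an unadjusted p of 0.05.

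The genes most like the adult globins across the embryos were ranked by the Pearson correlation of their log2 CPM with the mean of Hba-a1, Hba-a2, Hbb-bs and Hbb-bt, over 14730 other genes with a mean of at least 1 CPM. Among the first 10 were Tex9, Eps8l2, Gm26826, Pcmt1, Bicdl2, Jpx, Syk, D730003I15Rik and Tefm, with r from 0.96 down to 0.92 over the 8 embryos. The adult globins spanned 1.32 on the log2 scale, while Tex9, Eps8l2 and Pcmt1 spanned 0.33, 0.31 and 0.14. With 8 embryos and this many genes, high coefficients are found for genes of unrelated use.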

How the data were processed

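Before deposit the authors trimmed the single-end reads (Trimmomatic) and mapped them to the Ensembl GRCm38 genome (STAR). They deposited raw counts per gene, 1 table per embryo. The methods name GenomicRanges as the counter and the processing notes of the submitters name STAR, featureCounts and GRCm38.p3. The methods and the design text describe column-based RNA isolation, and the labels an extraction with Trizol. Libraries were poly A enriched with a kit that does not mark strand, and no removal of blood or globin RNA is described.

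Symbols were matched by Ensembl identifier for 42462 of 43629 genes, and lengths and positions come from GENCODE M21 on GRCm38. A gene needed 10 counts or more in 2 or more embryos from one group, and the genes kept were tested with edgeR 4.0.16 (TMM, quasi-likelihood test, Benjamini-Hochberg over all 17129 genes, R 4.3.3). CPM use the TMM-scaled library of these genes. Standard errors are the absolute log2 fold change over the square root of F. Ratios of counts were compared with exact two-sided permutation tests over 70 arrangements. The test was checked on simulated counts. In all 12 pairs of a group the counts differed beyond sampling noise (chi-square per degree of freedom at least 7.17).

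Members and the 16 gene lists (142 genes) were chosen with earlier results of these data known. Named are the members, Jag1, the 3 most abundant and all called genes of each list, and the 10 genes most like the adult globins. Some genes that this rule names are not reported here. Others were chosen after their values were seen. Alternatives were other scalings, no count filter, DESeq2 1.42.0, globins left out of library sizes, another pseudocount, group totals, reads per kb and leaving out each embryo.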

Additional observations from a re-analysis of the deposited data

Results flagged for a closer look

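A sample far from the other 3 of its group was found in 5 of the 44 groups of 4 values examined. Chance would give about 1 in 20 for independent and normally distributed values. Hbb-bt and Alas2 rise and fall together and the Hbb-bh1 flag rests on 1 read, so the rates cannot be compared directly. Control J5 stood apart with 158 CPM of Hbb-bt and with 27.4 CPM of Alas2, with gaps to the next control of 0.953 and 0.961 of the range of the group. Control J6 stood apart for Hbb-bh1 with 0.0519 CPM, which is 1 read where the other controls had none. Mutant K14J26 had 7.69 CPM of Ngp and 5.67 CPM of Ltf, a pair of neutrophil granule genes, against at most 3.03 and 2.08 CPM in the other mutants, although its adult globin and Alas2 values were the lowest of all embryos.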

How the results depend on the processing

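No paired analysis was made, because the groups share no replicate number and the labels give no litter. The paper describes the controls as littermates of the mutants, but which embryos shared a litter is not given. Litter could therefore not be taken into account. No setting brought a tested member under an adjusted p of 0.05, in 14 alternatives each. By library size alone the log2 fold change was -0.024 for Hba-a1, -0.017 for Hba-a2 and -0.015 for Alas2, and with a pseudocount of 10 the embryonic beta-type difference was -0.082, from 18 reads in all. The cause was not tested. With each embryo left out in turn the log2 fold changes ran from -0.23 to 0.21 (Hba-a1), -0.23 to 0.23 (Hba-a2), -0.17 to 0.28 (Hbb-bs), 0.05 to 0.46 (Hbb-bt) and -0.18 to 0.23 (Alas2), the lowest each time without K14J28. The genes called ran from 420 without K14J29 to 4322 without K14J28, against 2764, and also fell by over 1.5 times without J3, J5, J6 or J7. The neutrophil genes called ran from 3 to 6, an alternative chosen after seeing the data. Hba-x, Hbb-y and Hbb-bh1 were tested only without the count filter, where none passed in edgeR after adjustment and 1, Hba-x, had an unadjusted p under 0.05 (log2 fold change 1.33, 95% interval 0.064 to 2.60, adjusted p = 0.188). They had at most 27 reads per embryo, and depth limits what can be said of them.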
